A study of Mus musculus with 36 samples.

Results

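The 12 libraries prepared on day 2 of brown adipocyte differentiation were compared between 2 cell clones, 6 libraries of clone 66 against 6 of clone 48, out of 36 libraries in all. Members were taken by label alone, as every library labelled with day 2. Within each clone 3 libraries came from cells re-expressing wild-type RXRα (*Rxra*WT) and 3 from cells re-expressing RXRα in which serine 22 was replaced by alanine (*Rxra*SA), and both genotypes were pooled with genotype as a covariate. Both clones lack endogenous *Rxra*: each was grown from a single cell after the gene had been disrupted with Cas9 in a clonal mouse brown pre-adipocyte line, and a retrovirus with the pBabe Hygro backbone then returned one of the RXRα forms. By the methods, cells were grown to confluence (day 0) in medium that already held insulin and triiodothyronine. Dexamethasone, isobutylmethylxanthine and indomethacin were added to it for the next 2 days. The day 2 libraries thus stand at the end of exposure to the full cocktail, and the change from day 0 does not include the start of insulin and triiodothyronine. A group therefore stands for 1 clone in culture, not for a population of mice. By the sample labels all libraries of clone 48 belong to library pool 1 and all of clone 66 to pool 2, although the file headers carry the same library tag for both clones. As labelled, clone and pool cannot be told apart, and every clone difference given here is also one between pools.

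Brown pre-adipocytes become adipocytes through a cascade in which C/EBPβ and C/EBPδ, induced early by glucocorticoid and cyclic AMP, are followed by PPARγ and C/EBPα, the factors that switch on lipid storage genes. PPARγ binds DNA together with a retinoid X receptor such as RXRα. Dexamethasone activates the glucocorticoid receptor, isobutylmethylxanthine raises cyclic AMP by blocking phosphodiesterases, and indomethacin blocks cyclo-oxygenases and can activate PPARγ. Clones grown from single cells of one line can differ in how readily they respond to such an induction.

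The glucocorticoid receptor binds an inverted repeat in which the letters GNACA and TGT are held 3 bases apart. These letters were looked for in the promoters of the glucocorticoid response genes, since 13 of its 18 tested members were higher in clone 66 at day 2. RefSeq promoters on GRCm38.p6, from 250 bases before to 50 bases after each transcript start listed, were found for 17 of its 20 members, and both strands were read. GNACANNNTGT was found in 4 of them (*Sgk1*, *Mt1*, *Lcn2* and *Glul*) and in 973 of all 27025 symbols with a promoter (3.6%), or 3.11% of the 32851 promoters. The longer form GNACANNNTGTNC, which contains the shorter one, was found in *Sgk1* and *Mt1* and in 0.537% of all symbols, or 0.475% of all promoters. The promoters are shown 5′ to 3′ on the strand of the gene with the letters of the match in capitals; in *Lcn2* the match lies on the opposite strand. They lie at chr10:21993640-21993939 on the + strand (*Sgk1*), chr8:94178839-94179138 on the + strand (*Mt1*), chr2:32387690-32387989 on the - strand (*Lcn2*) and chr1:153899679-153899978 on the + strand (*Glul*). *Sgk1* has several RefSeq starts, and the window shown is at one inside the gene, downstream of its first. A match describes the letters in this window and not a bound site. *Glul*, counted among the 4, was named after its value at day 2 was seen.
Sgk1: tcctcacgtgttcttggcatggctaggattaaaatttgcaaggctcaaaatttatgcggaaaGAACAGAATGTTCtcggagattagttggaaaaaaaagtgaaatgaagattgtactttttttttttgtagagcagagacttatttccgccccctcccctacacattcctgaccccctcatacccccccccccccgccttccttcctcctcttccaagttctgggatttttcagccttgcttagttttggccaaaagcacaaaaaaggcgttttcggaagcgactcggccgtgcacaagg
Mt1: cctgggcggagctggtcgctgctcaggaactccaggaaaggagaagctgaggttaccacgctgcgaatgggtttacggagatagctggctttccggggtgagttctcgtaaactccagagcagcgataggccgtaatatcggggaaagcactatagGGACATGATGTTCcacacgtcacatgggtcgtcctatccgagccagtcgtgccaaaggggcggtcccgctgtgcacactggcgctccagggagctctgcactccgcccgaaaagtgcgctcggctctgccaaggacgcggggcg
Lcn2: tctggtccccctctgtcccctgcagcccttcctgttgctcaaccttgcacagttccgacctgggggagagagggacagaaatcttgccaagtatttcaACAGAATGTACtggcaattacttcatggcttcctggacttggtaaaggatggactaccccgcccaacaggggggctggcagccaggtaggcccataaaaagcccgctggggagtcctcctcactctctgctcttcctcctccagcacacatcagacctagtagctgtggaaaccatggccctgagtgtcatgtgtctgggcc
Glul: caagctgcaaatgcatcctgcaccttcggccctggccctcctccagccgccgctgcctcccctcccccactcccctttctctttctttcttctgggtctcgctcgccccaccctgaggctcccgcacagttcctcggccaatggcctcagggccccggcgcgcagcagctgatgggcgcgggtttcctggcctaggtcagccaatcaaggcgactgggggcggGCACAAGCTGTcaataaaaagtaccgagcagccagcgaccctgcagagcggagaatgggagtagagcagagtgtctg

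All 12 libraries were total RNA libraries sequenced as paired ends, and the counts of read pairs per GENCODE M21 gene were analysed. Total counts ranged from 15664658 to 18947456 in clone 48 and from 19394451 to 21388687 in clone 66. Levels are CPM, the count of a gene relative to the library total after TMM scaling, and fold changes are log2 values of clone 66 over clone 48 with the standard error of edgeR's quasi-likelihood fit, so that a positive value is a higher level in clone 66. A gene was called when its Benjamini-Hochberg adjusted p from that test lay under 0.05. The leading log2 fold change over 500 genes separated pairs of libraries of different clones by 2.84 ± 0.167 (SD, 36 pairs) and by no less than 2.63. The *Rxra*WT and *Rxra*SA library of the same clone and number lay 1.20 ± 0.108 apart (SD, 6 pairs), closer than libraries of the same genotype and other numbers, which lay 1.70 ± 0.377 apart (12 pairs). Same-numbered libraries were thus not independent of each other, and p-values that count 6 libraries a clone are too small to the extent that they repeat one another. Counts with 3 summed pairs a clone are given beside the main ones for that reason, and for some groups also those with the replicate number as a block. The description deposited with the data calls the replicates technical, whereas the methods speak of repeated independent cultures, so that the p-values may measure the spread between cultures of one clone or between preparations.

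At day 2, 5033 of 15076 tested genes (33.4%) were called between the clones, 2440 (16.2%) higher and 2593 (17.2%) lower in clone 66. Of these, 1161 differed at least 2-fold (7.70% of tested genes), 669 (4.44%) higher and 492 (3.26%) lower. The median size of a difference over all tested genes was 0.28 on the log2 scale, and for 2950 genes (19.6%) the 6 libraries of one clone all lay above the 6 of the other. With the *Rxra*WT and *Rxra*SA libraries of each number summed, 3 samples a clone were left and 2004 of 16276 tested genes were called. Among them were 1942 of the 5033 and 965 of the 1161 in the same direction. With the replicate number as a block 8244 genes were called. With both the summed pairs and the block, 6203 of 16276 tested genes were called. Among them were 4758 of the 5033 and 1155 of the 1161 in the same direction. Counts of called list members below are to be read against these shares over all tested genes. Summed pairs alone leave out that the replicate numbers pair the clones at day 2 (given below). Of the named results 52 were no longer called with them, and 2 with summed pairs and the block. Of distinct list members 154 of 634 were called with summed pairs and 379 of 634 with summed pairs and the block.

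The introduced gene was looked at first. *Rxra* ranged from 416 to 717 CPM with a median of 612 in clone 48 and from 403 to 588 CPM with a median of 558 in clone 66, and the ranges overlapped (-0.10 ± 0.14, adjusted p = 0.619). The counts do not separate the retroviral cDNA from transcripts of the disrupted gene. Its paralogue *Rxrb* overlapped as well (-0.036 ± 0.085, adjusted p = 0.78). In the list of retinoid X receptors and their partners, 3 of 14 tested members were higher and 1 lower, none of them with summed pairs and 7 with summed pairs and the block. The 2 that are named here were *Thra*, the thyroid hormone receptor α (0.43 ± 0.11, adjusted p = 0.00885), and *Vdr*, the vitamin D receptor (-1.03 ± 0.30, adjusted p = 0.0183), both of which missed the threshold with summed pairs (adjusted p = 0.123 and adjusted p = 0.114).

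Several genes were close to absent in one clone. *Pcsk6*, a proprotein convertase, had at most 3 counts in every library of clone 48 and ranged from 13.2 to 21.2 CPM with a median of 15.6 in clone 66, at least 85.6-fold higher when 3 counts per library are taken as the floor. The glycine receptor subunit gene *Glrb* (from 8.46 to 16.4 CPM with a median of 11.5 in clone 66, at least 59.4-fold) and the semaphorin gene *Sema3a* (from 6.15 to 10.4 CPM with a median of 8.13 in clone 66, at least 41-fold) had the same pattern. In the opposite direction *Cldn1*, a tight junction claudin, ranged from 12.7 to 20.9 CPM with a median of 16.3 in clone 48 and had at most 3 counts in every library of clone 66, at least 101-fold lower there. In none of these genes did the clones overlap.

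Among genes counted in both clones, with at least 5 CPM in the higher one, the lowest in clone 66 relative to clone 48 was *Ebf2*, a transcription factor that marks brown pre-adipocytes (chr14:67233292-67430918, + strand, GRCm38). *Ebf2* ranged from 42.7 to 79.4 CPM with a median of 51.3 in clone 48 and from 0.508 to 1.04 CPM with a median of 0.634 in clone 66. Every clone 48 library was far above every clone 66 library (-6.36 ± 0.22, adjusted p = 1.36e-09). The integrin α6 gene *Itga6* ranged from 156 to 264 CPM with a median of 205 in clone 48 and from 10.4 to 15.8 CPM with a median of 13.7 in clone 66 (-3.95 ± 0.16, adjusted p = 5.15e-09), again without overlap. *Dnajc15*, a co-chaperone of the mitochondrial inner membrane (-5.99), *Rhou*, a small GTPase (-5.24), *Efemp1*, a fibulin of the matrix (-5.19), *Igsf3*, an immunoglobulin superfamily protein (-4.78), *Crip2*, a LIM protein (-4.42), *Ephb2*, an ephrin receptor (-4.29), *Ly6c1* (-3.39) and *Car3*, carbonic anhydrase 3 (-3.30), were the other genes with the largest decreases. Being called and having no overlap between the clones were conditions for being named in this group.

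The genes with the largest increases among those counted in both clones included 3 neighbouring members of the *Serpina3* family, which encode secreted protease inhibitors of the acute phase. *Serpina3n* ranged from 1.56 to 2.31 CPM with a median of 1.8 in clone 48 and from 61.3 to 83.5 CPM with a median of 71.9 in clone 66 (5.30 ± 0.12, adjusted p = 4.16e-11). *Serpina3k* (6.98) and *Serpina3m* (4.98) were higher as well, but these genes are near-identical copies, so that the division of reads among them is uncertain. *Alcam*, a cell adhesion molecule, ranged from 0.443 to 1.93 CPM with a median of 1.23 in clone 48 and from 39 to 42.9 CPM with a median of 40.5 in clone 66 (5.13 ± 0.21, adjusted p = 5.15e-09), and *Ppic*, which encodes cyclophilin C, ranged from 1.75 to 4.84 CPM with a median of 3.11 in clone 48 and from 110.4 to 165 CPM with a median of 143 in clone 66 (5.45 ± 0.22, adjusted p = 5.15e-09). The cathepsin inhibitor gene *Ctla2a* (8.62), the casein gene *Csn2* (5.86), *Mctp1* (5.69), the poly(A) polymerase gene *Tent5d* (5.25) and the ephrin receptor gene *Epha7* (5.18) completed the 10 largest. The clone 48 libraries of these 5 genes lay at or below 0.578 CPM, so that the size of these fold changes rests on few counts there. None of the 10 overlapped between the clones, which like the call was a condition for being named here.

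**Figure D1:**
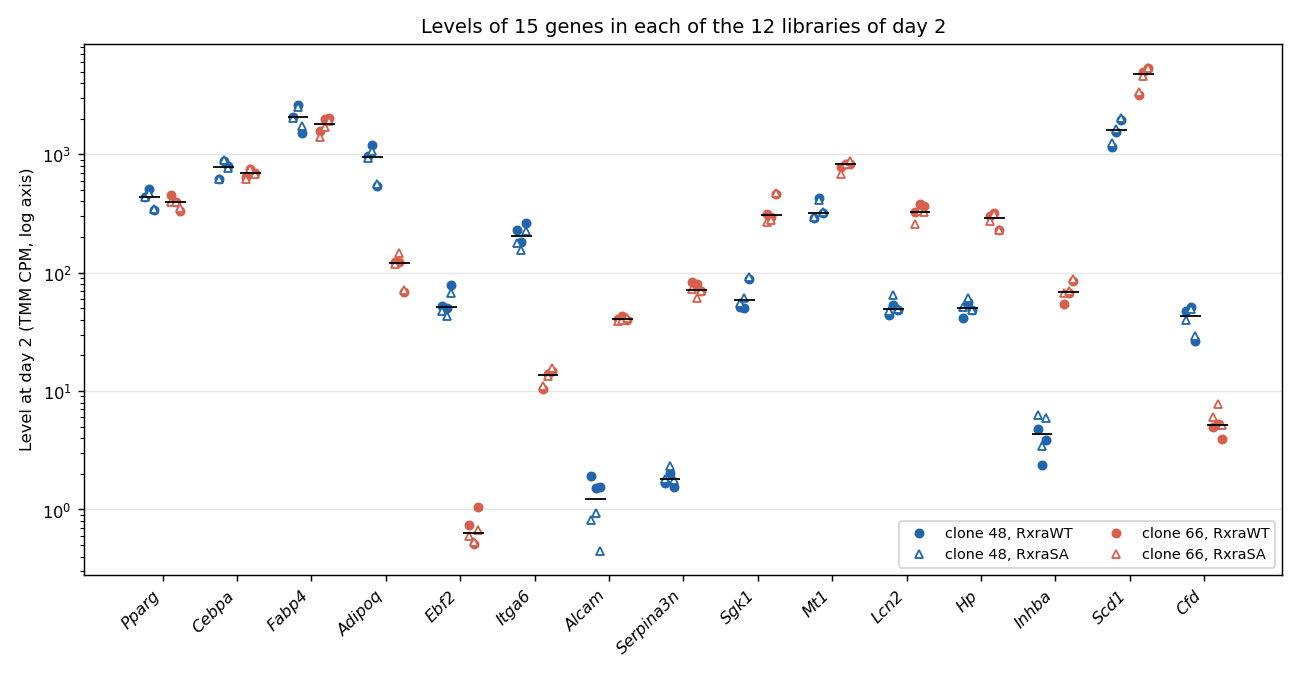
Level of 15 genes in each of the 12 day 2 libraries, in TMM-scaled CPM on a log axis; circles are RxraWT and triangles RxraSA libraries, blue for clone 48 and red for clone 66, and the line is the median of 6. Pparg, Cebpa and Fabp4 overlap between the clones, whereas the 6 libraries of each clone lie apart for the other 12 genes.

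The levels of the central adipogenic factors overlapped between the clones. *Pparg* ranged from 340.4 to 513 CPM with a median of 436 in clone 48 and from 330.0 to 456 CPM with a median of 394 in clone 66, and *Cebpa* ranged from 619 to 897 CPM with a median of 784 in clone 48 and from 619 to 758 CPM with a median of 692 in clone 66. Both overlapped and neither was called (-0.12 ± 0.11, adjusted p = 0.431 for *Pparg*; -0.14 ± 0.10, adjusted p = 0.33 for *Cebpa*, which passed with the replicate block at adjusted p = 0.0315). Of 20 tested adipogenic transcription factors 8 were higher and 5 lower, against 33.4% called among all genes. Those higher in clone 66 included *Cebpd*, the early C/EBPδ (from 34.5 to 50.1 CPM with a median of 39.5 in clone 48 and from 55.5 to 82.6 CPM with a median of 66.3 in clone 66; 0.71 ± 0.12, adjusted p = 0.000657), and *Nr3c1*, the glucocorticoid receptor. Those lower included, beside *Ebf2*, the pre-adipocyte zinc finger factor *Zfp423* (from 10.5 to 37.4 CPM with a median of 21.3 in clone 48 and from 3.72 to 8.35 CPM with a median of 6.97 in clone 66; -1.81 ± 0.31, adjusted p = 0.000754). With summed pairs 2 were called as higher and 4 as lower, and with summed pairs and the block 10 and 5.

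Lipid storage genes came next in the cascade. Of 30 tested lipid and glucose genes 8 were higher and 5 lower, with a median of 0.08, and 3 and 2 with summed pairs. *Fabp4*, the fatty acid carrier of adipocytes, ranged from 1513 to 2598 CPM with a median of 2047 in clone 48 and from 1399 to 2012 CPM with a median of 1805 in clone 66 and was not called (-0.22 ± 0.14, adjusted p = 0.246), and *Fasn* (fatty acid synthase, 0.047 ± 0.31, adjusted p = 0.93), *Plin1* (the lipid droplet coat, 0.22 ± 0.11, adjusted p = 0.152), *G0s2* (an inhibitor of lipolysis, -0.27 ± 0.22, adjusted p = 0.377) and *Insr* (the insulin receptor, 0.16 ± 0.15, adjusted p = 0.421) also overlapped. *Plin1* passed with the replicate block (adjusted p = 0.00766). *Scd1*, the stearoyl-CoA desaturase, was higher in every library of clone 66, ranging from 1145 to 2029 CPM with a median of 1592 in clone 48 and from 3144 to 5341 CPM with a median of 4731 in clone 66 (1.49 ± 0.18, adjusted p = 5.32e-05). *Dgat2*, which catalyses the last step of triglyceride synthesis, followed the same order (from 207 to 301 CPM with a median of 214 in clone 48 and from 463 to 674 CPM with a median of 503 in clone 66; 1.19 ± 0.13, adjusted p = 1.96e-05), as did *Elovl6* (1.17 ± 0.16, adjusted p = 0.0001). The glycerol channel gene *Aqp7* was lower (from 1.44 to 2.45 CPM with a median of 1.9 in clone 48 and from 0.26 to 0.659 CPM with a median of 0.309 in clone 66; -2.40 ± 0.24, adjusted p = 1.01e-05). *Slc2a4*, the insulin-responsive glucose transporter, was higher without overlap (0.37 ± 0.082, adjusted p = 0.00363) but missed the threshold with summed pairs (adjusted p = 0.131).

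The secreted products of adipocytes differed in both directions. *Adipoq* (adiponectin) ranged from 538 to 1194 CPM with a median of 947 in clone 48 and from 68 to 148 CPM with a median of 121 in clone 66, and no library of clone 66 reached the lowest of clone 48 (-3.0 ± 0.25, adjusted p = 2.52e-06; chr16:23146536-23158028). *Cfd* (adipsin) behaved likewise, ranging from 26.4 to 50.9 CPM with a median of 43.4 in clone 48 and from 3.96 to 7.78 CPM with a median of 5.2 in clone 66 (-2.88 ± 0.20, adjusted p = 4.03e-07). Because these are bulk cultures, fewer adipocytes and less RNA per adipocyte cannot be told apart. Of 11 tested adipokines and secreted adipocyte proteins 6 were higher and 3 lower, 4 and 2 with summed pairs. Among those higher were *Hp* (haptoglobin) and *Lcn2* (lipocalin 2), described below with the acute-phase proteins, and *Angptl4* (an inhibitor of lipoprotein lipase, 0.34 ± 0.064, adjusted p = 0.00124), which missed the threshold with summed pairs (adjusted p = 0.1).

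Markers of the brown lineage were checked against the cell type. Heat genes were low at this stage in both clones: *Ucp1* had at most 2 counts and *Cidea* at most 12 in any day 2 library, and only 10 of 25 brown identity and heat genes passed the expression filter. Of these 10, 5 were lower in clone 66 and 2 higher (median -0.50), the same numbers as with summed pairs. *Elovl3*, a fatty acid elongase of brown fat (from 8.47 to 14.9 CPM with a median of 9.49 in clone 48 and from 1.19 to 3.19 CPM with a median of 2.42 in clone 66; -2.25 ± 0.21, adjusted p = 6.48e-06), *Kcnk3*, a potassium channel (-1.48 ± 0.20, adjusted p = 8.93e-05), and *Adrb1*, the β1-adrenoceptor, were lower. *Adrb1* had at most 3 counts in every library of clone 66 and ranged from 1.23 to 1.88 CPM with a median of 1.37 in clone 48, at least 8.77-fold lower. *Pdk4*, a kinase that restrains pyruvate oxidation, was higher (from 109 to 135 CPM with a median of 124 in clone 48 and from 214 to 302 CPM with a median of 233 in clone 66; 1.02 ± 0.10, adjusted p = 1.12e-05). The summed level of a list of 10 brown adipocyte lineage markers, with *Fabp4* as its most abundant member, ranged from 3584 to 5522 CPM in clone 48 and from 2783 to 3641 CPM in clone 66; 2 of its 6 tested genes (*Adipoq* and *Ebf2*) were lower and none higher.

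Factors that hold pre-adipocytes back and surface markers of adipose progenitors were looked at next. Of 16 tested factors that hold back adipogenesis 2 were higher and 3 lower, a share no larger than the 33.4% over all genes, 1 in all with summed pairs and 8 with summed pairs and the block. *Zfp521*, a repressor of commitment, had no count in any clone 66 library and ranged from 0.578 to 1.55 CPM with a median of 0.94 in clone 48, at least 5.91-fold lower. *Gata3* (1.42 ± 0.39, adjusted p = 0.0138) and *Hes1* (0.46 ± 0.13, adjusted p = 0.016) were higher and *Id3* lower (-0.75 ± 0.21, adjusted p = 0.0141), and all 3 missed the threshold with summed pairs (adjusted p = 0.088, adjusted p = 0.106 and adjusted p = 0.117). Of 12 tested progenitor surface markers 4 were higher and 3 lower, 2 and 3 with summed pairs. *Ly6a*, which encodes Sca-1, was lower in all clone 66 libraries (from 4.98 to 9.61 CPM with a median of 5.98 in clone 48 and from 0.564 to 1.24 CPM with a median of 1.1 in clone 66; -2.7 ± 0.25, adjusted p = 5.29e-06), as were *Cd24a* (-1.90 ± 0.14, adjusted p = 6.44e-07) and *Vcam1* (-0.76 ± 0.083, adjusted p = 1.96e-05), whereas the tissue factor gene *F3* was higher (0.53 ± 0.063, adjusted p = 3.79e-05). *Pdgfra*, a receptor that marks adipose progenitors, overlapped (0.37 ± 0.19, adjusted p = 0.156; adjusted p = 0.0217 with the replicate block).

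Markers of other cells were near absent. None of 12 skeletal muscle markers was tested, and their summed level did not exceed 0.289 CPM in any library; *Myod1*, *Myf5*, *Myf6*, *Actc1* and *Mymk* were at 0. Endothelial markers summed to at most 1.13 CPM, and epithelial and mesothelial markers to at most 0.375 CPM with *Epcam* and *Krt18* at 0. Markers of macrophages and other blood cells summed to 4.12 to 5.80 CPM in clone 48 and 2.83 to 4.06 CPM in clone 66, with *Ptprc*, *C1qa* and *C1qb* at 0. The 9 cartilage and bone markers were low but separated the clones, at 2.57 to 5.62 CPM in clone 48 and 9.20 to 18.1 CPM in clone 66, and the 7 nerve and Schwann cell markers did so in reverse, at 2.82 to 3.35 CPM and 1.52 to 2.26 CPM.

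Many genes that answer to the induction cocktail were higher in clone 66. Of 18 tested glucocorticoid response genes 13 were higher and none lower, with a median log2 fold change of 0.81 against -0.01 over all genes. With summed pairs 12 were called as higher, and with summed pairs and the block 16. *Sgk1*, a kinase induced by glucocorticoids (chr10:21882184-21999903), ranged from 50.3 to 92.2 CPM with a median of 58.2 in clone 48 and from 268 to 469 CPM with a median of 305 in clone 66. All clone 66 libraries lay above all of clone 48 (2.39 ± 0.22, adjusted p = 5.33e-06). The metallothionein genes *Mt1* and *Mt2*, which buffer zinc and answer to glucocorticoid, were both higher: *Mt1* ranged from 288 to 429.8 CPM with a median of 321 in clone 48 and from 677 to 881 CPM with a median of 829.7 in clone 66 (1.23 ± 0.11, adjusted p = 3.42e-06) and *Mt2* ranged from 21.9 to 32.7 CPM with a median of 24.3 in clone 48 and from 43.6 to 56.4 CPM with a median of 53.8 in clone 66 (1.05 ± 0.099, adjusted p = 6.26e-06). *Fkbp5*, a co-chaperone of the glucocorticoid receptor, ranged from 416 to 538 CPM with a median of 494 in clone 48 and from 687 to 965 CPM with a median of 865 in clone 66 (0.79 ± 0.10, adjusted p = 7.31e-05). The receptor itself, *Nr3c1*, ranged from 201 to 248 CPM with a median of 239.6 in clone 48 and from 388 to 427 CPM with a median of 414 in clone 66 (0.82 ± 0.078, adjusted p = 6.43e-06); it lies on chromosome 18, whose genes were higher in clone 66 as a whole (given below). All 4 genes whose promoters are printed above were higher, among them *Glul*, glutamine synthetase (1.52, adjusted p = 9.51e-06). *Glul* was named after its value was seen and is counted among the 13. The promoters were searched because most of the list was higher, so the direction of these 4 was largely set beforehand. Not every classical target followed, since *Tsc22d3*, which encodes GILZ, overlapped between the clones (from 191 to 269 CPM with a median of 202 in clone 48 and from 167 to 283 CPM with a median of 229 in clone 66; 0.013 ± 0.14, adjusted p = 0.956).

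Cyclic AMP targets were also called mostly as higher. Of 17 tested members of the cyclic AMP and phosphodiesterase list 9 were higher and 1 lower (median 0.78), 7 and 1 with summed pairs, and 8 of the list had been called at day 0, each of them higher, against 24.4% of all genes tested at day 0. *Rgs2*, a regulator of G protein signalling, ranged from 0.332 to 1.13 CPM with a median of 0.828 in clone 48 and from 8.52 to 10.3 CPM with a median of 9.15 in clone 66 (3.63 ± 0.24, adjusted p = 2.97e-07). *Pde4b*, a phosphodiesterase induced by cyclic AMP, ranged from 63.3 to 95.8 CPM with a median of 73.2 in clone 48 and from 172 to 291 CPM with a median of 186 in clone 66 (1.47 ± 0.15, adjusted p = 1.39e-05). *Sik1*, a salt-inducible kinase (1.04 ± 0.13, adjusted p = 6.67e-05), and *Ptgs2*, the inducible cyclo-oxygenase (1.26 ± 0.18, adjusted p = 0.000152), were higher without overlap. The immediate-early receptor gene *Nr4a1* overlapped and was called (1.04 ± 0.34, adjusted p = 0.0323), but not with summed pairs (adjusted p = 0.155), and its paralogue *Nr4a2* was not called (-0.28 ± 0.18, adjusted p = 0.24).

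Of 15 tested thyroid hormone and PPAR targets 4 were called higher and 0 lower with summed pairs. With summed pairs and the block these were 11 and 1. In the main fit 11 were higher and 1 lower (median 0.44). The fatty acid oxidation genes *Acadm* (from 1048 to 1408 CPM with a median of 1181 in clone 48 and from 1696 to 2036 CPM with a median of 1842 in clone 66; 0.61 ± 0.081, adjusted p = 9.24e-05) and *Cpt1a* (0.86 ± 0.17, adjusted p = 0.00177), beside *Pdk4*, were among them, the first without and the second with overlap of the clones.

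**Figure D2:**
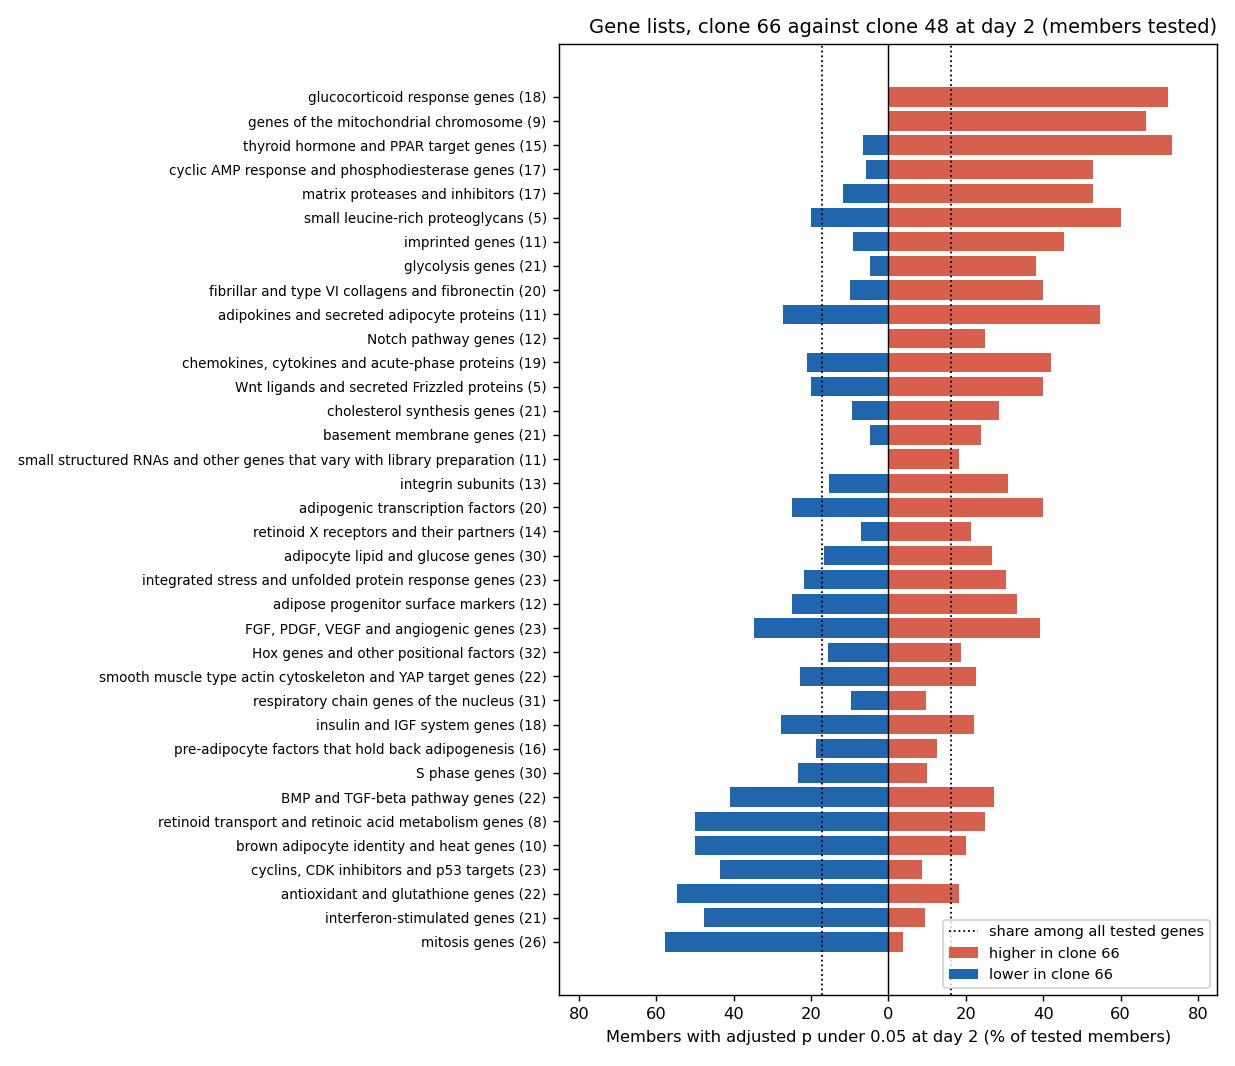
Share of the tested members of each gene list that had an adjusted p under 0.05 at day 2, red to the right for members higher and blue to the left for members lower in clone 66, with the number tested in brackets; dotted lines mark the shares over all tested genes, 16.2% higher and 17.2% lower. The glucocorticoid, thyroid hormone and PPAR, and cyclic AMP lists lie near the top with 13 of 18, 11 of 15 and 9 of 17 members higher, and mitosis genes at the foot with 15 of 26 lower.

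The early response to induction was then compared, as the change from day 0 to day 2 in clone 66 minus that in clone 48, over the 24 libraries of both days. Within clone 66, 10471 of 16897 tested genes (62.0%) changed from day 0 to day 2, 4973 (29.4%) rising and 5498 (32.5%) falling. Within clone 48, 11183 (66.2%) changed, 5489 (32.5%) rising and 5694 (33.7%) falling. Scaling by library size alone moved the median response from -0.04 to -0.33 on the log2 scale in clone 66 and from -0.01 to -0.27 in clone 48, and gave 3290 rising and 7660 falling genes in clone 66 and 3904 and 7303 in clone 48, so the split between rising and falling genes rests on the scaling. The response differed between the clones in 1050 genes (6.21%), being more positive in clone 66 in 565 (3.34%) and more negative in 485 (2.87%); 464 of them (2.75%) differed at least 2-fold. Scaling by library size alone turned this split to 499 more positive and 619 more negative, and that of the day 2 calls to 2083 higher and 3131 lower. With summed pairs 217 genes were called, and with summed pairs and a block 1204. In 341 of the 1050 genes both clones rose and in 309 both fell, with unequal size. In 51 genes clone 48 fell and clone 66 rose, and in 30 the reverse held. Of the rest, 81 fell and 90 rose with a call in clone 48 alone, and 65 fell and 83 rose with a call in clone 66 alone.

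Among genes with a more positive response in clone 66, *Fga*, the fibrinogen α chain, rose from a median of 0.618 to 18.2 CPM in clone 48 and from 0.0468 to 63.6 CPM in clone 66 (response difference 5.07 ± 0.43, adjusted p = 1.31e-07). The order of the clones turned, since *Fga* was lower in clone 66 at day 0 (-3.22, adjusted p = 0.000286) and higher at day 2 (1.83). It had at most 4 counts in every clone 66 library of day 0, so that its day 0 difference and its response rest on few counts. *Ceacam1*, an adhesion molecule, lay between 0.88 and 1.67 CPM at day 0 and between 0.65 and 1.19 CPM at day 2 in clone 48, and rose from a median of 1.39 to 16.7 CPM in clone 66 (response difference 3.87 ± 0.23, adjusted p = 1.91e-09). The secreted whey acidic protein genes *Wfdc3* (response difference 3.81 ± 0.37, adjusted p = 9.08e-07) and *Wfdc12* (response difference 4.33 ± 1.10, adjusted p = 0.0212) and the serum amyloid gene *Saa3* (response difference 4.22 ± 1.17, adjusted p = 0.0404) rose in both clones and further in clone 66. *Wfdc12* and *Saa3* had at most 3 counts in every day 0 library, so that their responses rest on a floor, and both missed the threshold with summed pairs. *Ctla2a* (response difference 4.94 ± 0.70, adjusted p = 0.000107) and *Tent5d* (response difference 4.26 ± 0.60, adjusted p = 0.000114) fell in clone 48, to at most 4 counts in a library, and rose in clone 66. *Tnnt2*, cardiac troponin T, fell from 13.7 CPM in clone 48 and 3.79 CPM in clone 66 (medians) to at most 0.129 and 0.177 CPM at day 2, where it was not tested; its value (response difference 4.66 ± 0.85, adjusted p = 0.00204) is set by counts near 0 at day 2.

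Among genes with a more negative response in clone 66, *Cldn1* rose from a median of 1.38 to 16.3 CPM in clone 48 and fell from 0.263 to 0.109 CPM in clone 66 (response difference -5.24 ± 0.46, adjusted p = 2.58e-07), the last value resting on at most 3 counts a library. *Igf1*, insulin-like growth factor 1, rose from 2.74 to 24.1 CPM in clone 48 and was at 18.2 and 17.5 CPM in clone 66 (medians; response difference -3.41 ± 0.37, adjusted p = 4.26e-06), so that its order turned from higher (2.73) to lower (-0.69) in clone 66. The day 2 difference of *Igf1* missed the threshold with summed pairs (adjusted p = 0.116). The annexin gene *Anxa8* (2.10 at day 0, -1.84 at day 2; response difference -3.93 ± 0.30, adjusted p = 4.23e-08) and the water channel gene *Aqp1* (1.09 and -2.33; response difference -3.41 ± 0.30, adjusted p = 2.48e-07) turned in the same way, as did *Inka2*, an inhibitor of the kinase PAK4 (1.32 and -1.13; response difference -2.44 ± 0.15, adjusted p = 1.91e-09), and *Angptl2* (0.60 and -1.68; response difference -2.27 ± 0.19, adjusted p = 1.17e-07). *Cfd* (response difference -2.53 ± 0.52, adjusted p = 0.00422) and the cytokine receptor gene *Csf2rb* (response difference -2.42 ± 0.47, adjusted p = 0.00264) rose in both clones and less in clone 66; both missed the threshold with summed pairs.

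Response differences also appeared in some of the gene lists. Of 18 glucocorticoid response genes 7 had a more positive response in clone 66 and none a more negative one, against 3.34% and 2.87% of all tested genes. In the cyclic AMP and phosphodiesterase list these were 2 and 1 of 18 (median difference 0.05). In the thyroid hormone and PPAR list they were 3 and 0 of 16 (median difference 0.31), while the median over all genes was -0.04. *Sgk1* had a median of 62.5 CPM in clone 48 and 72.7 CPM in clone 66 at day 0, where the clones overlapped (0.10, adjusted p = 0.649), and it changed by -0.012 in clone 48 and by 2.28 in clone 66 (response difference 2.29 ± 0.28, adjusted p = 2.2e-05). *Mt1* changed by 0.0013 and 0.83 in the same order (response difference 0.83 ± 0.20, adjusted p = 0.015). *Dgat2* (response difference 1.47 ± 0.17, adjusted p = 1.05e-05) and *Scd1* (response difference 1.43 ± 0.22, adjusted p = 0.000311) rose in both clones and further in clone 66, and *Cebpa*, which was lower in clone 66 at day 0 (-1.31), rose further there (response difference 1.18 ± 0.23, adjusted p = 0.00253) to the overlapping levels of day 2. *Adipoq*, by contrast, rose by 8.07 in clone 48 and 8.30 in clone 66 (response difference 0.22 ± 0.54, adjusted p = 0.896), and a clone difference of like direction had been present at day 0 (-3.18, adjusted p = 0.000353).

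**Figure D3:**
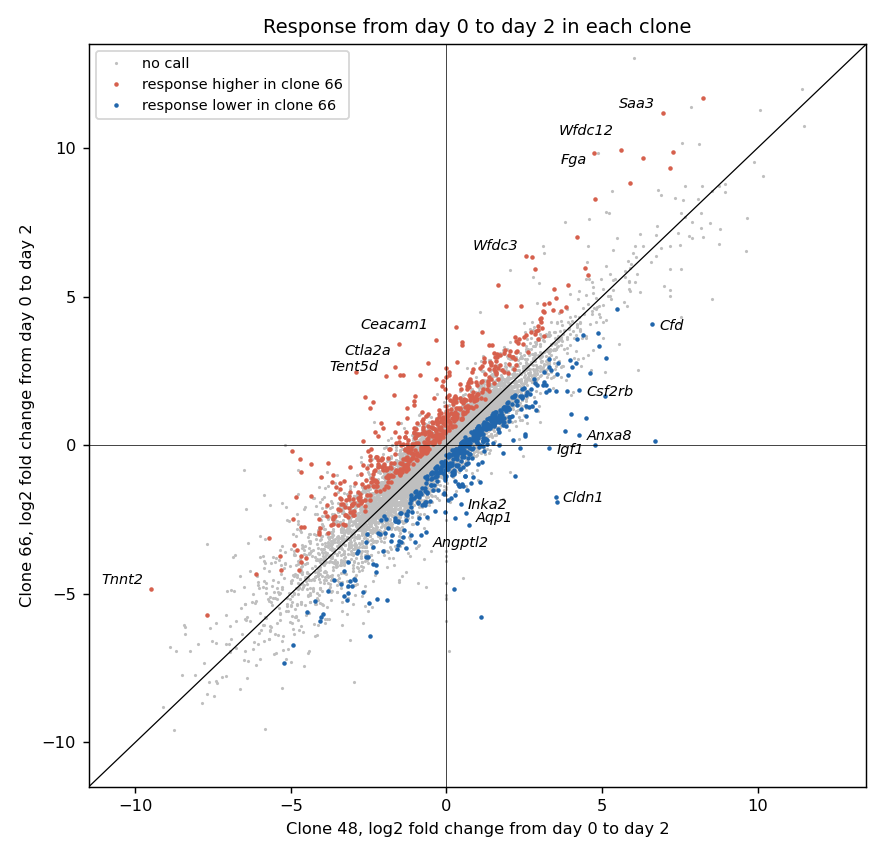
Log2 fold change from day 0 to day 2 of each of 16897 genes in clone 48 (horizontal axis) and clone 66 (vertical axis), with the line of equal response; red and blue points are the 565 and 485 genes whose response was more positive or more negative in clone 66 at an adjusted p under 0.05, and the 16 genes named for the largest differences are labelled. Points lie along the line, with Fga, Ctla2a and Tnnt2 above it and Cldn1, Anxa8 and Igf1 below it.

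Genes of cell division were looked at next. Of 26 tested mitosis genes 15 were lower and 1 higher (median -0.40), 5 and 0 with summed pairs and 15 and 3 with summed pairs and the block. The B-type cyclin genes *Ccnb1* (from 171 to 241 CPM with a median of 211 in clone 48 and from 98.5 to 152 CPM with a median of 117 in clone 66; -0.75 ± 0.11, adjusted p = 0.000283) and *Ccnb2* (from 84.8 to 116 CPM with a median of 94.7 in clone 48 and from 46.3 to 59.7 CPM with a median of 53.3 in clone 66; -0.83 ± 0.087, adjusted p = 1.45e-05), which drive entry into mitosis, did not overlap. *Aurkb*, a mitotic kinase, was lower (-0.51 ± 0.072, adjusted p = 0.000156), while *Mki67* varied widely within clones (from 52.4 to 364 CPM with a median of 99.1 in clone 48 and from 111 to 267 CPM with a median of 188 in clone 66) and was not called (0.15 ± 0.50, adjusted p = 0.847). *Top2a* (-0.45 ± 0.14, adjusted p = 0.0285) and *Ube2c* (-0.40 ± 0.063, adjusted p = 0.000368) missed the threshold with summed pairs (adjusted p = 0.184 and adjusted p = 0.0625). Of 30 tested S phase genes 7 were lower and 3 higher, 2 and 0 with summed pairs. *Rrm2*, a ribonucleotide reductase subunit (-0.83 ± 0.16, adjusted p = 0.00178), and *Dut*, which removes dUTP (-0.77 ± 0.12, adjusted p = 0.000341), were lower, and *Mcm2*, part of the replicative helicase, was not called (-0.048 ± 0.061, adjusted p = 0.585). Of 23 tested cyclins, inhibitors and p53 targets 10 were lower and 2 higher at day 2, but 2 and 1 with summed pairs. At day 0, 12 had been called, of which 10 were higher and 2 lower, where 24.4% of all genes tested at day 0 were called. Of the list 8 had a more negative response in clone 66 and 1 a more positive one, against 2.87% and 3.34% of all tested genes. *Eda2r*, a p53 target, was higher in clone 66 at day 0 (0.66) and lower at day 2 (from 15.9 to 24.8 CPM with a median of 21.4 in clone 48 and from 6.76 to 9.65 CPM with a median of 8.46 in clone 66; -1.28 ± 0.13, adjusted p = 1.37e-05; response difference -1.94 ± 0.19, adjusted p = 1.33e-06). *Cdk4* (from 1031 to 1414 CPM with a median of 1053 in clone 48 and from 685 to 792 CPM with a median of 739 in clone 66; -0.63 ± 0.087, adjusted p = 0.00014) was lower without overlap, and *Sesn1* (0.45 ± 0.07, adjusted p = 0.0003) was higher.

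Histone genes lay in the window of the genome with the lowest values. The window of 30 neighbouring tested genes with the lowest median, at chr13:23531050-23762386, had a median of -0.90, with 28 lower and 0 higher. This window was chosen by its value, and it covers part of the replication-dependent histone cluster. Of 57 tested histone genes of that kind on all chromosomes 44 were lower and 1 higher (median -0.87); the group was chosen after the window was seen and is given as a description. Their median deviation from the 12-library mean ranged from -0.12 to 0.88 in the clone 48 libraries and from -0.69 to 0.03 in the clone 66 libraries, so that the clones overlapped, the 2 libraries of replicate 3 of clone 48 (-0.09 and -0.12) lying below the highest clone 66 library. Among libraries of the same number, both of clone 66 lay below both of clone 48 for each of the 3 numbers. With summed pairs 18 were lower, and with summed pairs and the block 50 were lower and 0 higher. *Hist1h4h*, an abundant member, ranged from 191 to 522 CPM with a median of 322 in clone 48 and from 120.1 to 228 CPM with a median of 152 in clone 66 and overlapped (-1.07 ± 0.23, adjusted p = 0.00362; adjusted p = 0.0523 with summed pairs).

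Matrix genes differed in both directions with more of them higher in clone 66. Of 20 tested fibrillar and type VI collagens and fibronectin 8 were higher and 2 lower (median 0.38), 4 and 1 with summed pairs. The clones expressed the chains of collagen I and III in opposite order: *Col1a2* ranged from 1.23 to 4.76 CPM with a median of 3.21 in clone 48 and from 18.6 to 43.7 CPM with a median of 23.2 in clone 66 (3.12 ± 0.31, adjusted p = 9.29e-06), whereas *Col3a1* ranged from 45.2 to 101 CPM with a median of 88.8 in clone 48 and from 19.3 to 25 CPM with a median of 20.3 in clone 66 (-1.88 ± 0.21, adjusted p = 2.17e-05). *Col1a1* overlapped (1.87 ± 0.42, adjusted p = 0.00436) and missed the threshold with summed pairs (adjusted p = 0.0553). *Col5a2*, a chain of collagen V, was higher in all libraries (from 408 to 694 CPM with a median of 657 in clone 48 and from 1301 to 1588 CPM with a median of 1428 in clone 66; 1.30 ± 0.15, adjusted p = 3.3e-05), and *Col11a1* had at most 3 counts in every clone 48 library and was at least 4.41-fold higher. Of 17 tested proteases and inhibitors 9 were higher and 2 lower, 8 and 1 with summed pairs. *Adamts9* (from 4.33 to 6.92 CPM with a median of 5.38 in clone 48 and from 40 to 56.3 CPM with a median of 44.5 in clone 66; 3.02 ± 0.14, adjusted p = 1.27e-08), *Mmp11* (from 4.7 to 7.87 CPM with a median of 6.54 in clone 48 and from 21.1 to 42.7 CPM with a median of 36.4 in clone 66; 2.37 ± 0.19, adjusted p = 1.3e-06) and *Adamts1* (1.71 ± 0.13, adjusted p = 1.3e-06) were higher, all without overlap, and *Mmp2* was lower (-1.31 ± 0.32, adjusted p = 0.00645) but not with summed pairs (adjusted p = 0.0706).

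Of 21 tested basement membrane genes 5 were higher and 1 lower, where 33.4% of all tested genes were called. With summed pairs 3 and 0 were called, and 11 and 2 with summed pairs and the block. The laminin genes *Lama4* (from 0.554 to 1.55 CPM with a median of 0.867 in clone 48 and from 4.91 to 7.9 CPM with a median of 6.23 in clone 66; 2.65 ± 0.24, adjusted p = 4.97e-06) and *Lama5* (1.5 ± 0.29, adjusted p = 0.00153) were higher, and the collagen IV gene *Col4a1*, which overlapped (0.64 ± 0.24, adjusted p = 0.0548), passed with the replicate block (adjusted p = 0.000533). Of 5 tested small leucine-rich proteoglycans 3 were higher and 1 lower, 1 and 0 with summed pairs, with *Bgn* (biglycan) higher in all clone 66 libraries (from 36.7 to 57.4 CPM with a median of 42.3 in clone 48 and from 97.1 to 151 CPM with a median of 125 in clone 66; 1.44 ± 0.15, adjusted p = 1.16e-05). Of 13 tested integrin subunits 4 were higher and 2 lower, 0 and 1 with summed pairs, *Itga6* being the one that remained. Of 22 tested smooth muscle type actin cytoskeleton and YAP target genes 5 were higher and 5 lower, 4 and 1 with summed pairs, among them *Axl* (1.42 ± 0.16, adjusted p = 2.17e-05) and *Cnn3* (0.59 ± 0.086, adjusted p = 0.000185) higher and *Tpm1* lower (-0.55 ± 0.064, adjusted p = 3.08e-05).

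Genes of the immune response differed in both directions. Of 21 tested interferon-stimulated genes 10 were lower and 2 higher (median -0.40), 7 and 2 with summed pairs. *Tap1*, the peptide transporter of antigen presentation, ranged from 14.7 to 24.7 CPM with a median of 17.3 in clone 48 and from 2.85 to 6.32 CPM with a median of 3.82 in clone 66 (-2.24 ± 0.21, adjusted p = 6.36e-06). The immunoproteasome gene *Psmb9* (from 2.75 to 4.4 CPM with a median of 3.69 in clone 48 and from 0.468 to 1.3 CPM with a median of 0.777 in clone 66; -2.12 ± 0.22, adjusted p = 1.45e-05) and the class I gene *H2-D1* (from 226 to 308 CPM with a median of 257 in clone 48 and from 104 to 157 CPM with a median of 118 in clone 66; -1.03 ± 0.12, adjusted p = 3.3e-05) followed the same order, although *H2-D1* belongs to a family of near-identical copies and its count is uncertain.

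Of 19 tested chemokines, cytokines and acute-phase proteins 8 were higher and 4 lower, 5 and 1 with summed pairs. At day 0, 5 of the list had been called and each of them was lower, where 24.4% of all genes tested at day 0 were called. *Hp* lay at or below 0.891 CPM in every day 0 library and at day 2 ranged from 41.2 to 61.2 CPM with a median of 49.9 in clone 48 and from 228 to 317 CPM with a median of 288 in clone 66 (2.44 ± 0.12, adjusted p = 1.29e-08; response difference 3.36 ± 0.32, adjusted p = 9.08e-07). *Lcn2*, which binds bacterial siderophores, ranged from 43.5 to 65.1 CPM with a median of 48.9 in clone 48 and from 260.1 to 377 CPM with a median of 327 in clone 66 (2.7 ± 0.11, adjusted p = 5.51e-09; response difference 3.45 ± 0.52, adjusted p = 0.000198). The complement gene *C4b* was low but higher in all clone 66 libraries (from 0.289 to 0.867 CPM with a median of 0.492 in clone 48 and from 2.2 to 4.62 CPM with a median of 3.29 in clone 66; 2.65 ± 0.29, adjusted p = 2.17e-05). The chemokine gene *Ccl2* overlapped (-0.65 ± 0.28, adjusted p = 0.0954; adjusted p = 0.0397 with the replicate block).

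Among signalling genes of the TGF-β family *Inhba*, which encodes the activin A subunit (chr13:16011851-16031621), differed between the clones. It ranged from 2.38 to 6.28 CPM with a median of 4.32 in clone 48 and from 54.1 to 88.8 CPM with a median of 68.7 in clone 66 (4.03 ± 0.21, adjusted p = 3.31e-08). At day 0 the clones had overlapped with medians of 10.4 and 14.5 CPM, and *Inhba* then fell in clone 48 by 1.40 and rose in clone 66 by 2.35 on the log2 scale (response difference 3.74 ± 0.38, adjusted p = 2.46e-06). Of 22 tested BMP and TGF-β pathway genes 6 were higher and 9 lower, 2 and 3 with summed pairs. *Bambi*, a decoy receptor gene of chromosome 18, was higher (from 3.06 to 4.62 CPM with a median of 3.56 in clone 48 and from 14.6 to 17.4 CPM with a median of 15.3 in clone 66; 2.09 ± 0.11, adjusted p = 2.26e-08), and the inhibitory *Smad6* (-0.90 ± 0.13, adjusted p = 0.000213) and the receptor gene *Tgfbr1* (-0.53 ± 0.072, adjusted p = 0.000113) were lower. Of 12 tested Notch pathway genes 3 were higher and none lower, 1 and 0 with summed pairs, the ligand gene *Jag1* being higher without overlap (from 21.7 to 26.9 CPM with a median of 23.5 in clone 48 and from 53.6 to 78.1 CPM with a median of 61.2 in clone 66; 1.38 ± 0.10, adjusted p = 6.78e-07). Of 5 tested Wnt ligands and secreted Frizzled proteins 2 were higher and 1 lower, 1 and 1 with summed pairs, with *Sfrp2* lower in all clone 66 libraries (from 2.9 to 12 CPM with a median of 7.22 in clone 48 and from 1.53 to 2.75 CPM with a median of 2.14 in clone 66; -1.76 ± 0.31, adjusted p = 0.00082).

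Of 23 tested genes of the FGF, PDGF, VEGF and angiogenic list 9 were higher and 8 lower, 6 and 7 with summed pairs. The receptor gene *Fgfr2* was lower (from 12.8 to 25.9 CPM with a median of 18.5 in clone 48 and from 2.86 to 6.32 CPM with a median of 4.25 in clone 66; -2.12 ± 0.22, adjusted p = 1.29e-05), and the ligand genes *Fgf10* (from 7.8 to 10.1 CPM with a median of 9.26 in clone 48 and from 15.7 to 31.7 CPM with a median of 26.4 in clone 66; 1.46 ± 0.14, adjusted p = 7.2e-06), *Fgf9* (2.45 ± 0.25, adjusted p = 1.16e-05) and *Fgf1* (1.81 ± 0.27, adjusted p = 0.000239) were higher, the last 2 at low levels. Of 18 tested insulin and IGF genes 4 were higher and 5 lower, 2 and 1 with summed pairs. *Akt1* was lower (-0.61 ± 0.10, adjusted p = 0.000543) and *Grb10*, an inhibitor of the insulin receptor, was higher with overlap (1.58 ± 0.33, adjusted p = 0.00295). *Irs1* was not called (-0.35 ± 0.30, adjusted p = 0.401). Of 8 tested retinoid transport and retinoic acid metabolism genes 2 were higher and 4 lower, 1 and 2 with summed pairs: *Aldh1a7*, an aldehyde dehydrogenase (from 68 to 101 CPM with a median of 92.8 in clone 48 and from 7.12 to 11.1 CPM with a median of 10.3 in clone 66; -3.20 ± 0.15, adjusted p = 1.27e-08), and *Dhrs9*, a retinol dehydrogenase (from 241 to 286 CPM with a median of 264 in clone 48 and from 113 to 136 CPM with a median of 125 in clone 66; -1.06 ± 0.067, adjusted p = 1.71e-07), were lower, and *Rarres1* was higher (from 0.312 to 0.578 CPM with a median of 0.446 in clone 48 and from 7.67 to 19.2 CPM with a median of 12.3 in clone 66; 4.81 ± 0.23, adjusted p = 1.36e-08).

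Glycolysis genes were more often called higher than lower in clone 66, with 8 of 21 tested higher and 1 lower (median 0.40), 5 and 1 with summed pairs. Before induction, at day 0, 8 of the list had been called higher and 1 lower, where 24.4% of all genes tested at day 0 were called. The response was more positive in clone 66 in 1 of 21 and more negative in 1 (median difference 0.05), against 3.34% and 2.87% of all tested genes. *Pfkfb3*, which sets the level of fructose 2,6-bisphosphate, ranged from 27 to 39.7 CPM with a median of 31.4 in clone 48 and from 80.2 to 134 CPM with a median of 103 in clone 66 (1.72 ± 0.13, adjusted p = 1.05e-06). *Pfkp* (from 25.4 to 33 CPM with a median of 29.9 in clone 48 and from 55.7 to 60.5 CPM with a median of 58 in clone 66; 0.96 ± 0.08, adjusted p = 2.18e-06) and *Ldha* (from 269 to 364 CPM with a median of 287 in clone 48 and from 476 to 595 CPM with a median of 506 in clone 66; 0.76 ± 0.092, adjusted p = 4.58e-05) were higher in all libraries. *Pdk1*, which inhibits pyruvate dehydrogenase, was lower (from 40.2 to 54.5 CPM with a median of 45.7 in clone 48 and from 6.15 to 10.8 CPM with a median of 7.15 in clone 66; -2.60 ± 0.13, adjusted p = 2.24e-08), and *Gapdh* was not called (0.12 ± 0.067, adjusted p = 0.201). Of 31 tested respiratory chain genes of the nucleus 3 were higher and 3 lower, where 33.4% of all tested genes were called. With summed pairs 1 and 0 were called. With summed pairs and the block 7 and 6 were called, where 6203 of all 16276 tested genes were. *Ndufa2* was higher (0.72 ± 0.14, adjusted p = 0.00183) and lies on chromosome 18, and *Ndufb3* overlapped (0.25 ± 0.18, adjusted p = 0.31; adjusted p = 0.0108 with the replicate block). Over all 18 tested genes of the mitochondrial chromosome 6 were higher and 1 lower. Of 9 tested members of the list of its genes 6 were higher and none lower, of which *mt-Cytb* remained with summed pairs (from 755 to 1289.8 CPM with a median of 1005 in clone 48 and from 1556 to 1802 CPM with a median of 1770.5 in clone 66; 0.79 ± 0.12, adjusted p = 0.00028). Of 21 tested cholesterol synthesis genes 6 were higher and 2 lower, 2 and 1 with summed pairs. *Cyp51* (from 414 to 695 CPM with a median of 562 in clone 48 and from 1001 to 1191 CPM with a median of 1073 in clone 66; 0.98 ± 0.11, adjusted p = 3.08e-05) and *Stard4*, a sterol carrier of chromosome 18 (1.56 ± 0.15, adjusted p = 7.2e-06), were higher, and *Acat2* was lower (-0.72 ± 0.085, adjusted p = 3.71e-05).

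Of 22 tested antioxidant and glutathione genes 12 were lower and 4 higher (median -0.26), 3 and 2 with summed pairs. With summed pairs and the block 10 were lower and 5 higher. *Gstt1* (from 1.19 to 3.2 CPM with a median of 1.89 in clone 48 and from 0.312 to 0.485 CPM with a median of 0.397 in clone 66; -2.31 ± 0.23, adjusted p = 8.65e-06), *Gsta4* (from 5.24 to 8.24 CPM with a median of 6.64 in clone 48 and from 1.59 to 2.99 CPM with a median of 2.23 in clone 66; -1.52 ± 0.17, adjusted p = 3.02e-05) and *Gsr*, glutathione reductase (-0.63 ± 0.084, adjusted p = 9.24e-05), were lower. *Sod3*, the extracellular superoxide dismutase, was higher in all clone 66 libraries (from 1.35 to 4.06 CPM with a median of 3.55 in clone 48 and from 8.97 to 15 CPM with a median of 13.4 in clone 66; 2.03 ± 0.24, adjusted p = 3.33e-05). Of 23 tested genes of the integrated stress and unfolded protein responses 7 were higher and 5 lower, 3 and 1 with summed pairs. The chaperone genes *Dnajb9* (0.84 ± 0.09, adjusted p = 1.68e-05) and *Creld2* (0.57 ± 0.074, adjusted p = 7.43e-05) were higher, *Shmt2* was lower (-0.61 ± 0.076, adjusted p = 5.18e-05) and *Atf4* was not called (0.016 ± 0.088, adjusted p = 0.91).

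Imprinted and positional genes were also read. Of 11 tested imprinted genes 5 were higher and 1 lower, 4 and 1 with summed pairs: *Plagl1* (from 4.26 to 7.78 CPM with a median of 6.35 in clone 48 and from 12.8 to 18.2 CPM with a median of 15 in clone 66; 1.32 ± 0.15, adjusted p = 2.61e-05), *Sgce* (0.69 ± 0.10, adjusted p = 0.00026) and *Mest* (0.83 ± 0.13, adjusted p = 0.000448) were higher and *Impact* was lower (from 91.6 to 118 CPM with a median of 111 in clone 48 and from 33.7 to 41.6 CPM with a median of 36 in clone 66; -1.54 ± 0.085, adjusted p = 4.76e-08). *Impact* lies on chromosome 18, against the direction of most genes there. Of 32 tested Hox genes and other positional factors 6 were higher and 5 lower, a share close to the 33.4% over all genes, and 4 and 3 with summed pairs. *Hoxb2* (from 2.26 to 3.75 CPM with a median of 3.32 in clone 48 and from 8.11 to 10.7 CPM with a median of 9.62 in clone 66; 1.59 ± 0.14, adjusted p = 3.74e-06) and *Shox2* (1.17 ± 0.093, adjusted p = 1.47e-06) were higher, and *Hoxa9*, with at most 3 counts in every clone 66 library, was at least 7.75-fold lower. Of the Y-linked genes and *Xist* only *Xist*, the RNA that silences an X chromosome, was tested. It ranged from 211 to 394 CPM with a median of 259.6 in clone 48 and from 134 to 215 CPM with a median of 150.2 in clone 66, lower in clone 66 with a narrow overlap (-0.86 ± 0.20, adjusted p = 0.00469; adjusted p = 0.0532 with summed pairs), and no Y-linked gene of the list had more than 1 count in a library. Of 11 tested genes that vary with library preparation 2 were higher and none lower, and none with summed pairs. *Malat1* (0.76 ± 0.23, adjusted p = 0.0226; adjusted p = 0.149 with summed pairs) and *Neat1* (0.53 ± 0.14, adjusted p = 0.0117; adjusted p = 0.111) were the 2, and *Rn7sk* overlapped (-0.21 ± 0.19, adjusted p = 0.424). Without these genes and those of the mitochondrial chromosome 5059 genes were called at day 2 and 1049 in the response.

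The most highly counted genes with a difference of at least 2-fold were also listed. Beside *Scd1*, *Col5a2* and *Mt1*, *Scd2* (1.03 ± 0.31, adjusted p = 0.0216), *Fam129b* (from 243 to 419.8 CPM with a median of 330.5 in clone 48 and from 666 to 889 CPM with a median of 784 in clone 66; 1.28 ± 0.13, adjusted p = 1e-05) and *Colec12*, a scavenger receptor (from 153 to 259 CPM with a median of 245 in clone 48 and from 663 to 1157 CPM with a median of 834 in clone 66; 1.94 ± 0.17, adjusted p = 2.57e-06), were higher. *Glud1*, glutamate dehydrogenase (from 765 to 1232 CPM with a median of 1028 in clone 48 and from 424 to 563 CPM with a median of 482 in clone 66; -1.03 ± 0.11, adjusted p = 2.39e-05), *Pla2g16*, a phospholipase of adipocytes (from 296 to 531 CPM with a median of 397 in clone 48 and from 113 to 185 CPM with a median of 146 in clone 66; -1.47 ± 0.16, adjusted p = 2.14e-05), *Mfsd12*, a lysosomal cysteine transporter (-1.28 ± 0.12, adjusted p = 4.54e-06), and the cytoskeletal adducin gene *Add3* (-1.62 ± 0.087, adjusted p = 3.47e-08) were lower beside *Hist1h4h* and *Adipoq*. *Scd2* overlapped between the clones and missed the threshold with summed pairs (adjusted p = 0.13).

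The clone difference was not spread evenly over the genome. The median over all tested genes was -0.01, but the 409 tested genes of chromosome 18 had a median of 0.69, with 301 higher and 11 lower and 89.5% above 0. Chromosome 18 held 2.71% of the tested genes and 12.3% of those higher in clone 66. In every library of clone 66 the median deviation of its genes from the 12-library mean lay between 0.33 and 0.40, and in every library of clone 48 between -0.39 and -0.31. All 38 windows of 30 genes on chromosome 18 had a median over 0.5, and they made up most of the 45 such windows among 1453. The median was 0.78 at day 0 and 0.71 at day 6, before and after the induction period. Chromosomes 12 (median -0.33, 40 higher and 237 lower of 547) and X (-0.31, 36 higher and 181 lower of 419) had the lowest medians, again on each day (-0.37 and -0.39 for chromosome 12 at days 0 and 6, -0.34 and -0.39 for X). Smaller shifts were seen on chromosomes 3 (0.27), 9 (-0.23), 1 (0.18), 19 (-0.17) and 11 (0.15). The chromosome is given for only some of the genes named in this report, so that others may lie on chromosome 18 too. DNA was not measured.

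**Figure D4:**
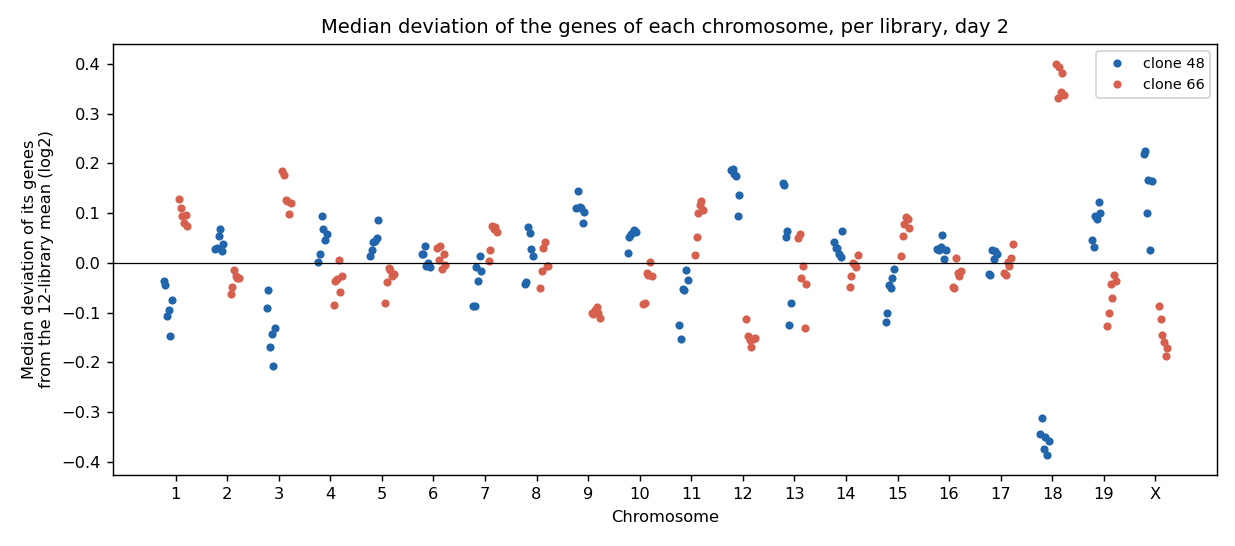
Median deviation (log2) of the tested genes of each chromosome from their 12-library mean, 1 point a library, blue for clone 48 and red for clone 66 at day 2. On chromosome 18 the clone 66 libraries lie between 0.33 and 0.40 and the clone 48 libraries between -0.39 and -0.31, and chromosomes 12 and X are among those that separate in the other direction.

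Days 0 and 6 showed how long each difference lasted. At day 0, 3947 of 16166 tested genes (24.4%) were called between the clones, and at day 6, 4125 of 15700 (26.3%). Of the genes tested at days 0 and 2, 2046 were called on both days in the same direction, which is 42.4% of those called at day 2 and 58.8% of those called at day 0, and 105 were called in opposite directions. For days 2 and 6 the shared number was 2230, 45.8% of the day 2 and 59.6% of the day 6 calls, with 96 in opposite directions. *Ebf2* (-6.48 at day 0, -5.67 at day 6), *Ppic* (5.71 and 5.10), *Alcam* (4.70 and 5.51) and *Col1a2* (2.64 and 3.01) differed on all 3 days. Other differences were called at day 2 alone. *Sgk1* (0.10 and 0.44), *Mt1* (0.41 and 0.28), *Wfdc3* (-0.19 and 0.20) and *Hp* (-0.89 and -0.34) were called at neither day 0 nor day 6. *Adipoq* narrowed from -3.18 at day 0 and -3.0 at day 2 to -0.70 at day 6.

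**Figure D5:**
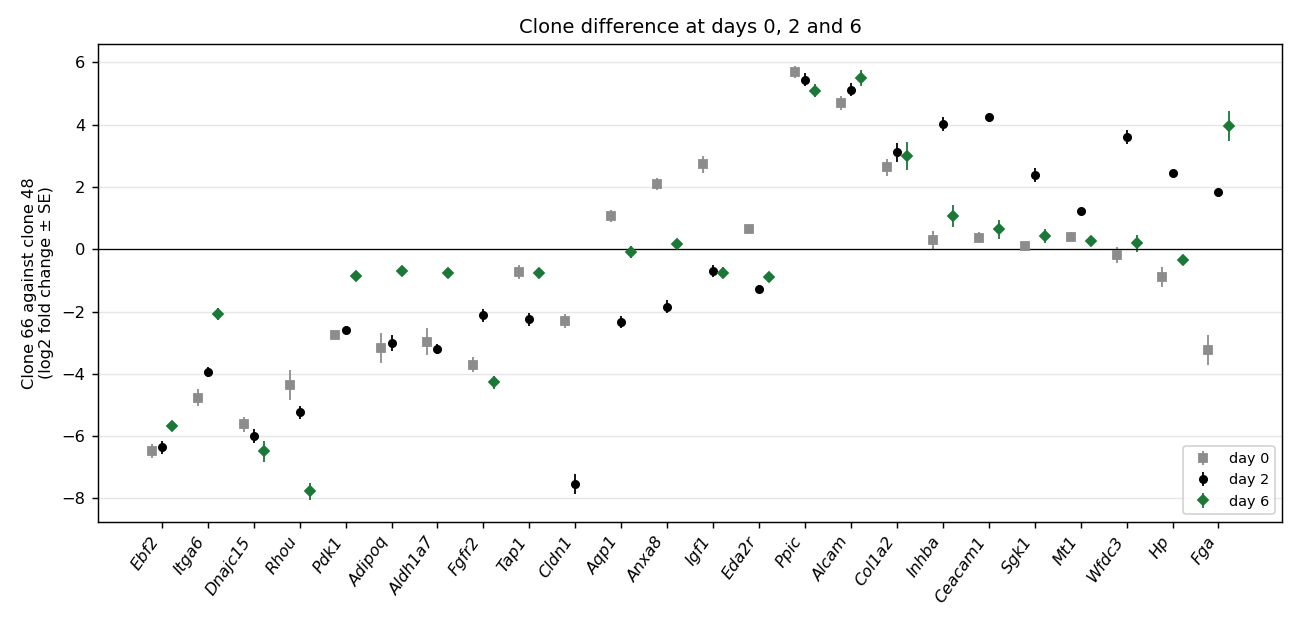
Log2 fold change of clone 66 against clone 48 with its standard error for 24 named genes at day 0 (grey squares), day 2 (black circles) and day 6 (green diamonds). Ebf2, Ppic and Alcam keep their difference over the days, whereas Sgk1 and Wfdc3 were called at day 2 alone; Cldn1 was not tested at day 6 and its day 2 value rests on at most 3 counts in each clone 66 library.

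The clone difference at day 2 was compared between the RXRα forms. In a model with a term for each clone and genotype, 0 of 15076 genes had an adjusted p under 0.05 by edgeR's quasi-likelihood test for the difference of the clone effect between *Rxra*WT and *Rxra*SA (143 at an unadjusted p under 0.05, 0.949% of genes; smallest adjusted p 0.999993). DESeq2 called 0, with 77 at an unadjusted p under 0.05. These fits leave out that same-numbered libraries deviate together; with the replicate block 0 were called and 377 had an unadjusted p under 0.05, and limma's voom with a random block for same-numbered libraries called 1, with 902. Fitted separately, the 3 *Rxra*WT libraries a clone gave 1119 calls and the 3 *Rxra*SA libraries a clone gave 2311. *Ebf2* differed by -6.30 with the wild-type and by -6.43 with the alanine form, *Adipoq* by -3.10 and -2.90, *Sgk1* by 2.49 and 2.27 and *Inhba* by 4.21 and 3.83.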

How the data were processed

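Total RNA libraries were prepared by the authors with a stranded kit from brown pre-adipocyte clones 48 and 66 at days 0, 2 and 6. Reads were aligned with STAR 2.7.0d to GRCm38.p6, and featureCounts 1.6.2 counted read pairs per gene of GENCODE M21 without a strand option. The counts were deposited by the authors as raw counts, 1 table a library, for 55536 genes; antisense and overlapping genes therefore share reads or lose them. Groups were taken from the sample labels.

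Counts of the 12 day 2 libraries were fitted with edgeR 4.0.16 (filterByExpr, TMM, quasi-likelihood test with the older dispersion method) in R 4.3.3, with clone and genotype as terms, and Benjamini-Hochberg adjustment was made over all tested genes. The change from day 0 to day 2 was compared in a fit of 24 libraries. Standard errors were obtained as the log2 fold change divided by the square root of the F statistic. Printed CPM were scaled over all 36 libraries with edgeR, and overlap of the clones was judged on them. No other test was made for gene lists, which are described by counts and medians.

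Replicate numbers are shared by the clones. Over 9378 genes, deviations from the group means at day 2 correlated between same-numbered libraries of different clones in 12 of 12 pairs (mean r = 0.688, lowest 0.355). The numbers thus pair the samples of that day. On the other days the pairing was less even, with a mean r of 0.493 at day 0 (lowest -0.353) and 0.594 at day 6 (lowest -0.281). This check comes from the data, and why the numbers pair is not given in the sources used here.

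The members, the 37 gene lists and the 7 marker lists were chosen with earlier results of these data known. Named genes were *Rxra* and the markers of the study; the 10 genes a direction with the largest difference (mean of at least 5 CPM, no overlap, at least 4 counts in some library of the lower clone); up to 6 a direction with at most 3 counts in every library of one clone; the 6 a direction with the highest level among those at least 2-fold different; the 8 a direction with the largest response difference; and up to 4 members a list with the smallest adjusted p with the first 2 of each list. Some of the genes this rule names are not reported here. Alternatives were other normalizations, filters, tools (limma 3.58.1 voom, DESeq2 1.42.0), subsets, leaving out replicates, summed pairs and the replicate block. Summed pairs with the block were added after the pairing had been seen.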

Additional observations from a re-analysis of the deposited data

Results flagged for a closer look

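The response from day 0 to day 2 differed between the clones in 1050 genes by the test of the difference itself (edgeR's quasi-likelihood test, adjusted p under 0.05). Among the genes named for it, the response of clone 66 minus that of clone 48 was positive for *Fga* (5.07), *Ctla2a* (4.94), *Tnnt2* (4.66), *Wfdc12* (4.33), *Tent5d* (4.26), *Saa3* (4.22), *Ceacam1* (3.87) and *Wfdc3* (3.81) on the log2 scale. It was negative for *Cldn1* (-5.24), *Anxa8* (-3.93), *Igf1* (-3.41), *Aqp1* (-3.41), *Cfd* (-2.53), *Inka2* (-2.44), *Csf2rb* (-2.42) and *Angptl2* (-2.27). *Saa3* and *Wfdc12* had at most 3 counts in every day 0 library, *Tnnt2* was close to 0 at day 2, *Fga* had at most 4 counts in every clone 66 library of day 0, and *Cldn1* at most 3 in those of day 2.

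Single libraries stood apart from the other 5 of their clone at day 2 in 10 of 276 groups of 6 values, by Dixon's limit for the gap to the nearest library over the range; chance flags about 1 in 20 groups. In clone 48 these were *Epha7* in the *Rxra*WT library of replicate 2 (0.578 CPM against 0.187 to 0.332 in the others), *Glrb* in the *Rxra*SA library of replicate 2 (0.0722 CPM against 0) and *Tnnt2* in the *Rxra*WT library of replicate 1 (0.129 CPM against 0). In the *Rxra*WT library of replicate 3 of clone 66 there were 3, *Aqp7* (0.659 CPM against 0.26 to 0.338), *Igf1* (13.3 against 17 to 17.8) and *Wfdc12* (14.5 against 21.2 to 24.1). The others in clone 66 were *Mt2* in the *Rxra*SA library of replicate 1 (43.6 CPM against 52.1 to 56.4), *Sik1* in the *Rxra*WT library of replicate 1 (19.3 against 26.1 to 29.5), and *Pdk1* (10.8 against 6.15 to 7.8) and *Tnnt2* (0.177 against 0.104 to 0.113) in the *Rxra*SA library of replicate 2.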

How the results depend on the processing

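Against 5033 genes called at day 2 in the reported fit, limma's voom with a random block for same-numbered libraries called 2665, summed pairs 2004, the replicate block 8244, the *Rxra*WT libraries alone 1119 and the *Rxra*SA libraries alone 2311; other normalizations, filters and tools gave 4657 to 5361, and leaving out 1 replicate gave 3678 to 5764. For the response difference (1050) the settings in the same order gave 441, 217, 2180, 112 and 138. Its replicate block was the number within each clone over both days, not the number shared by the clones. Leaving out 1 replicate gave 527 to 1189, the count being 527 without replicate 2 of clone 48, 538 without replicate 3 of clone 66 and 588 without replicate 1 of clone 66. At day 0 (3947) voom gave 2474, summed pairs 1800, *Rxra*WT alone 1346 and *Rxra*SA alone 1004. At day 6 (4125) voom gave 1805, summed pairs 1282, the replicate block 7689, *Rxra*WT alone 1029 and *Rxra*SA alone 839, and leaving out 1 replicate 2565 (without replicate 2 of clone 48) to 4994 (without replicate 1 of clone 66). The dependence on genotype had 1 call with voom against 0. Of 616 distinct tested list members 312 were called. With summed pairs 154 of 634 were called, and with summed pairs and the block 379 of 634. The median of chromosome 18 was 0.73 in the *Rxra*WT libraries alone and 0.73 with a filter at 1 CPM, and that of chromosome 12 was -0.36 in the *Rxra*SA libraries alone. No named value that was called in the reported fit or in the alternative changed direction between them. Changes of direction of values called in neither were not counted. Of 245 named results 52 were no longer called with summed pairs and none were lost with the replicate block, with which 13 more passed. Summed pairs alone leave out that the numbers pair the clones. With summed pairs and the block 236 stayed the same, 7 more passed and 2 were no longer called. The subsets and summed pairs hold fewer samples, and the cause of the other shifts was not tested. Genes with few counts in one clone have fold changes that depend on the prior count, and changes under a few counts were not detectable at this depth.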
